A study of Mus musculus with 12 samples.

Results

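The B cell antigen receptor is an antibody molecule bound to the signalling chains Ig-alpha and Ig-beta, which carry tyrosines that Src-family kinases phosphorylate when antigen binds. Syk and Btk then act through the scaffold BLNK on phospholipase C gamma, exchange factors and protein kinase C, while inhibitory receptors such as CD22 recruit the phosphatase SHP-1 and dampen the signal. Plasma cells, the antibody-secreting end of the B cell lineage, are known for a reduced response through this receptor. The 32 genes described here were chosen by symbol as members of this pathway, and all 32 were found among the 21761 genes of the deposited table and passed the filter on low counts. They comprise 5 receptor chains and co-receptors, 3 inhibitory receptors, 2 phosphatases, 5 kinases, 6 adaptors and 11 enzymes, exchange factors and downstream effectors.

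Messenger RNA was sequenced from B cells of mouse spleen that had been sorted as B220+ CD43-, labelled with a division dye (CFSE or CTV), moved into uMT hosts, which lack B cells of their own, and challenged with lipopolysaccharide (LPS). On day 3 they were sorted by dye dilution into Div0, Div1, Div3 and Div5 (0, 1, 3 and 5 divisions) and, at 8 or more divisions, into Div8pos (CD138+) and Div8neg (CD138-) cells. All groups thus share the transfer, the host type and LPS, and Div0 cells are undivided cells of challenged hosts, not unchallenged cells. Each group held 2 libraries of 40000 cells each, 1 from each of hosts 196 and 197, so n = 2 throughout. The tests took the spread between libraries over all groups and drew it toward that of other genes. A small p-value therefore does not rest on the libraries of the compared groups alone. It also cannot speak for variation between mice beyond these 2 hosts. The labels give female mice of 8 weeks and the strain B6.SJL-Ptprca Pepcb/BoyJ, while the design text names C57/BL6J donors, and which of the animals the strain label describes is not stated. That strain carries its own allele of Ptprc, a member, and B220 is a product of Ptprc and was a sorting marker before transfer. Whether cells of several donors were pooled is not stated in the sources used here.

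Levels are the authors' mRNAs per cell, which are scaled by length and by spike-in RNA added to each lot of sorted cells, and can be compared between genes. Depth ran from 11551585 to 14975133 counts over genes, and from 113723 to 683173 over spike-ins. The summed mRNAs per cell were 27410 and 33580 in Div0, 42830 and 59950 in Div1, 43590 and 53530 in Div3, and 75040 and 67990 in Div5, in hosts 196 and 197. At 8 or more divisions they were 174000 and 152000 in Div8pos, against 96920 and 103600 in Div8neg. Each comparison was therefore made on counts relative to all genes (edgeR) and on mRNAs per cell (limma), and a gene was called at an adjusted p under 0.05. The gate itself was checked by Sdc1, the gene of CD138, at 43.4 and 36.0 mRNAs per cell in Div8pos, against 0.289 and 0.519 in Div8neg. A list of 5 plasma cell genes that includes Sdc1 summed to 759 to 833 mRNAs per cell in Div8pos, against 62.2 to 81.4 in Div8neg. The 6 B cell genes of the marker list, of which Cd79a and Cd79b are also members here, summed to 188 to 219 in Div8pos, against 508 to 543 in Div8neg. Markers of T cells summed to at most 1.14 mRNAs per cell in every library. A list of 8 macrophage and monocyte genes summed to 5.68 to 5.87 in Div8pos, against 8.89 to 11.4 in Div8neg. Cd68 carried that difference, at 3.14 and 3.64 in Div8pos, against 7.28 and 9.09 in Div8neg, while C1qa was at 0.385 and 0.463 in Div8pos, against 0.128 and 0.266 in Div8neg, and C1qb and C1qc were higher in Div8pos too. A list of 5 dendritic cell genes, led by Flt3 and with Clec9a at 0 in both groups, summed to 1.86 to 2.53 in Div8pos, against 12.8 to 13.2 in Div8neg. Of 4 red cell genes the 3 in the table, led by Hbb-b1, summed to 0.0475 to 0.946 in Div8pos, against 3.84 to 5.82 in Div8neg. The neutrophil genes, led by S100a9, summed to 1.72 to 3.39 in Div8pos, against 3.34 to 6.85 in Div8neg. The part of such cells in the differences below was not tested.

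Taken as a whole, the 32 genes took 0.42% and 0.414% of the mRNAs in Div8pos, against 1.2% and 1.2% in Div8neg, and 1.84% and 1.78% in Div0. In molecules they summed to 731 and 629 per cell in Div8pos, against 1163 and 1239 in Div8neg. In Div0 they summed to 503 and 596, so the Div8pos sum per cell lay above that of undivided cells in both hosts. In bulk samples, fewer cells holding an mRNA and less of it per cell cannot be told apart.

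The split by CD138 at 8 or more divisions asked which receptor, adaptor and inhibitor genes CD138+ cells kept. On counts relative to all genes, 28 of the 32 members were lower in Div8pos than in Div8neg, 3 were higher (Lax1, Blnk and Rasgrp3) and Vav3 was not called. Over all 12049 genes tested, 72% were called, with 36.7% higher and 35.3% lower, where 87.5% of the members were lower. The median log2 difference was -1.56 over the members and 0.01 over all genes. Per cell, 20 members were lower, 4 higher (Lax1, Blnk, Rasgrp3 and Vav3) and 8 not called, where 68.3% of all genes were called, 52% higher and 16.3% lower. The per-cell median was -1.0 over the members, against 0.49 over all genes, beside the larger mRNA total of Div8pos cells. In mRNAs per cell, the Div8pos libraries overlapped the Div8neg libraries for Btk, Plcg2 and Prkcd. Overlap was not counted over all genes, so nothing is read from how many members did not overlap.

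**Figure D1:**
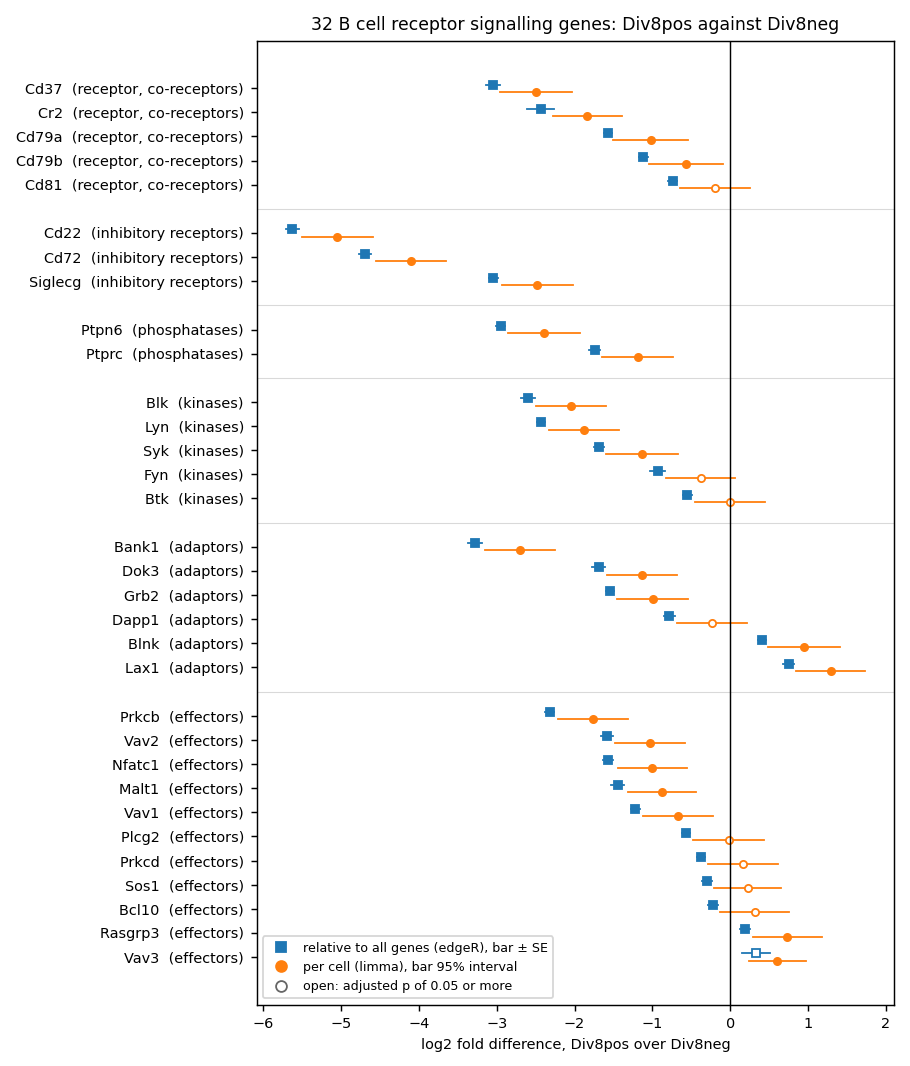
Log2 fold difference of each of the 32 genes, Div8pos over Div8neg (n = 2 each), relative to all genes (squares, bar ± SE) and per cell (circles, bar the 95% interval), grouped by role, with open symbols for genes not called. Cd22 and Cd72 lie farthest to the left on both scales, and Lax1, Blnk and Rasgrp3 lie to the right of 0 on both.

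The largest falls with CD138 relative to all genes were those of the inhibitory receptors Cd22 and Cd72. Cd22, which encodes a sialic acid-binding receptor that recruits SHP-1, was at 3.44 and 2.46 mRNAs per cell in Div8pos, against 96.7 and 102 in Div8neg. In earlier divisions it was at 37.7 and 44.5 in Div0, 62.1 and 81.6 in Div1, 71.2 and 80.7 in Div3, and 121 and 106 in Div5. The Div8pos libraries thus lay below every other library, undivided cells included, while Div5 held the most. In the count table Cd22 averaged 37.7 ± 5.78 CPM in Div8pos and 1875 ± 36.9 CPM in Div8neg (SD, n = 2 each), a log2 difference of -5.63 ± 0.09 (SE, adjusted p = 7.0e-17). Per cell the group means differed 33.8-fold.

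Cd72, a lectin-like receptor that also carries an inhibitory motif, was at 2.96 and 2.50 mRNAs per cell in Div8pos, against 46.1 and 51.0 in Div8neg. It had been at 22.2 and 25.0 in Div0, 44.8 and 59.3 in Div1, 53.2 and 61.7 in Div3, and 77.3 and 69.4 in Div5. As for Cd22, the highest level was in Div5 and the lowest in Div8pos, and the per-cell means of Div8pos and Div8neg differed 17.8-fold (log2 difference -4.11, adjusted p = 8.7e-32). In a later build's annotation, 41.6% of the exon bases of Cd72 are shared with Tesk1 on the opposite strand, and whether the counting used strand is not stated. Tesk1 itself was at 2.20 and 2.05 mRNAs per cell in Div8pos and 2.22 and 2.45 in Div8neg, near the level of Cd72 in Div8pos. How many of the Cd72 reads came from Tesk1 was not tested.

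Siglecg, another sialic acid-binding inhibitory receptor, kept more of its mRNA. It was at 5.83 and 4.87 mRNAs per cell in Div8pos, against 28.8 and 31.6 in Div8neg, a 5.65-fold difference of means (adjusted p = 2.1e-17). Its highest mean came early, at 45.9 and 62.7 in Div1, where Div0 held 23.7 and 27.8. Summed over the 3 receptors, Div8pos held 12.2 and 9.83 mRNAs per cell, against 172 and 185 in Div8neg. Div0 held 83.5 and 97.3, so the sum in CD138+ cells was below that of undivided cells in both hosts.

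Both phosphatases were lower in Div8pos on both scales. Ptpn6, the gene of SHP-1, was at 16.2 and 13.9 mRNAs per cell in Div8pos, against 77.6 and 81.4 in Div8neg. It was at 31.7 and 37.5 in Div0, 49.0 and 64.5 in Div1, 50.0 and 58.5 in Div3, and 79.2 and 69.0 in Div5. Div8pos was the lowest group, at a log2 difference of -2.95 ± 0.06 from Div8neg relative to all genes (SE, adjusted p = 7.8e-16). Ptprc, whose product CD45 removes the inhibitory phosphate from Src-family kinases, was at 24.3 and 22.4 in Div8pos, against 52.2 and 54.7 in Div8neg. Its Div0 libraries were at 17.6 and 19.7, below those of Div8pos, though the per-cell test of Div8pos against Div0 did not call it (1.25-fold, 95% interval 0.914 to 1.71). Whether the strain's Ptprc allele affects the mapping of reads was not tested.

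The receptor chains were lower by less. Cd79a, the gene of Ig-alpha, was at 91.3 and 82.4 mRNAs per cell in Div8pos, against 168 and 185 in Div8neg (log2 difference per cell -1.02, adjusted p = 1.4e-04). Cd79b, the gene of Ig-beta, was at 75.7 and 60.4 in Div8pos, against 97.6 and 104 in Div8neg (log2 difference per cell -0.57, adjusted p = 0.028). Both chains thus remained among the more abundant members in CD138+ cells. The per-cell call for Cd79b was lost without any 1 of 3 libraries, at adjusted p = 0.0986 without Div8neg host 196, 0.153 without Div8neg host 197 and 0.239 without Div8pos host 197, and it was also lost with no filter on low values. Both chains were also lower relative to all genes, with log2 differences of -1.57 ± 0.05 for Cd79a and -1.12 ± 0.06 for Cd79b.

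The co-receptor genes parted. Cd81, a tetraspanin of the B cell co-receptor complex, was at 38.3 and 34.0 mRNAs per cell in Div8pos, against 40.4 and 42.3 in Div8neg, and was not called per cell (0.875-fold by means, 95% interval of the fitted fold 0.64 to 1.19). It had been at 9.12 and 11.4 in Div0, 14.6 and 19.3 in Div1, 14.3 and 17.1 in Div3, and 27.9 and 24.6 in Div5. Cd81 therefore stood above all earlier divisions in both groups at 8 or more divisions.

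Cr2, the complement receptor of the same complex, was at 2.29 and 2.29 mRNAs per cell in Div8pos, against 9.21 and 7.74 in Div8neg. It was at 20.5 and 20.4 in Div0, 29.7 and 34.2 in Div1, 24.8 and 23.4 in Div3, and 26.4 and 19.1 in Div5. The loss of Cr2 had thus begun among CD138- cells, where Div8neg lay below Div5 in both hosts. Cd37, a tetraspanin of mature B cells, was at 12.6 and 9.62 in Div8pos, against 64.1 and 60.9 in Div8neg, a 5.64-fold difference of means. Relative to all genes the log2 differences were -2.44 ± 0.17 for Cr2 and -3.05 ± 0.09 for Cd37 (SE).

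**Figure D2:**
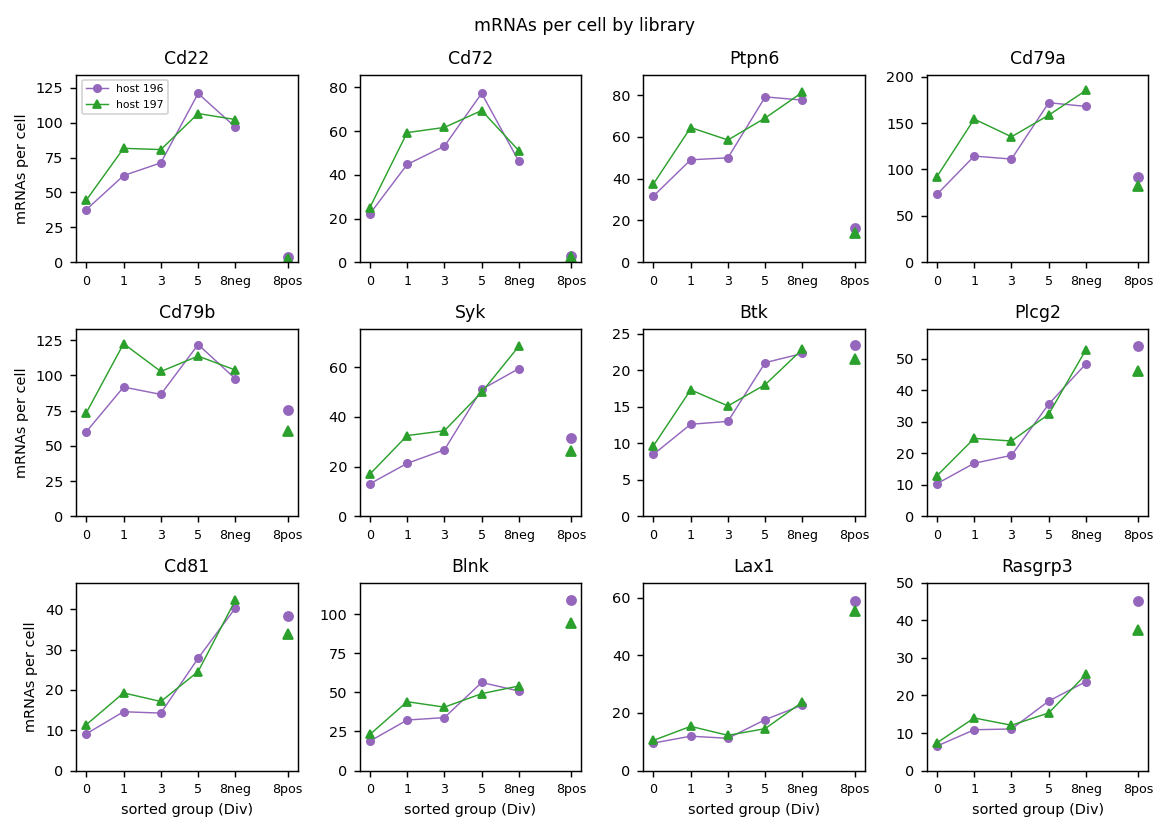
mRNAs per cell of 12 of the genes in each library, by sorted group, with host 196 as circles and host 197 as triangles and lines joining the CD138- groups of a host. Cd22, Cd72 and Ptpn6 are lowest in Div8pos, Btk, Plcg2 and Cd81 lie near their Div8neg levels there, and Blnk, Lax1 and Rasgrp3 are highest there.

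Among the kinases, Blk, Lyn and Syk were lower in Div8pos on both scales, and Fyn and Btk only relative to all genes. Blk, a Src-family kinase of B cells, was at 7.50 and 5.70 mRNAs per cell in Div8pos, against 27.2 and 27.3 in Div8neg, and Div0 held 17.1 and 19.1. Lyn, which phosphorylates both the activating and the inhibitory receptors, was at 10.9 and 9.55 in Div8pos, against 35.8 and 39.8 in Div8neg. Div0 held 10.6 and 12.8 of Lyn, a range that overlapped that of Div8pos. The log2 differences relative to all genes were -2.60 ± 0.09 for Blk and -2.43 ± 0.05 for Lyn (SE).

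Syk, the kinase that docks on the phosphorylated receptor chains, was at 31.6 and 26.5 mRNAs per cell in Div8pos, against 59.4 and 68.4 in Div8neg. It had increased along the CD138- groups, at 13.1 and 17.0 in Div0, 21.3 and 32.5 in Div1, 26.8 and 34.4 in Div3, and 51.0 and 49.9 in Div5. Even so, Div8pos held more Syk per cell than Div0 in both hosts (1.93-fold by means, adjusted p = 1.1e-04). Fyn was scarce throughout, at 2.27 and 2.48 in Div8pos, against 2.87 and 3.37 in Div8neg, and its per-cell difference was not called (adjusted p = 0.126).

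Btk, the Tec-family kinase whose loss stops B cell development in humans, was at 23.5 and 21.6 mRNAs per cell in Div8pos, against 22.3 and 22.9 in Div8neg. In earlier divisions it was at 8.47 and 9.65 in Div0, 12.6 and 17.3 in Div1, 13.0 and 15.1 in Div3, and 21.0 and 18 in Div5. The libraries of Div8pos and Div8neg overlapped, and the fitted log2 difference per cell was -0.00 with a 95% interval of 0.732 to 1.36 in fold. Relative to all genes Btk was lower in Div8pos (log2 difference -0.55 ± 0.06, adjusted p = 2.8e-07).

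Among the adaptors 2 rose and 3 fell on both scales. Blnk, the scaffold that brings Btk and phospholipase C gamma to Syk, was at 109 and 94.7 mRNAs per cell in Div8pos, against 50.9 and 54.1 in Div8neg. It was at 18.8 and 23.1 in Div0, 32.3 and 44.1 in Div1, 33.9 and 40.6 in Div3, and 56.4 and 49.2 in Div5. Both Div8pos libraries lay above all others, and Blnk was the most abundant of the 32 in Div8pos. The means differed 1.94-fold per cell (adjusted p = 2.3e-04), and by a log2 difference of 0.41 ± 0.05 relative to all genes (SE, adjusted p = 1.4e-06).

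Lax1, a membrane adaptor that dampens antigen receptor signals, was at 59.0 and 55.2 mRNAs per cell in Div8pos, against 22.7 and 23.8 in Div8neg. It was at 9.53 and 10.5 in Div0, 11.9 and 15.3 in Div1, 11.2 and 12.2 in Div3, and 17.6 and 14.5 in Div5. Lax1 thus had the largest increase of the 32 with CD138 on both scales, at 2.46-fold by means per cell (adjusted p = 4.3e-07) and a log2 difference of 0.75 ± 0.07 relative to all genes (SE). The negative regulators were therefore split, with Cd22, Cd72, Siglecg, Ptpn6 and Dok3 lower and Lax1 higher in Div8pos.

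Bank1, a scaffold that binds Lyn and the inositol trisphosphate receptor, was at 3.55 and 2.54 mRNAs per cell in Div8pos, against 19.7 and 20.6 in Div8neg. Its Div0 libraries held 8.28 and 9.65, so Div8pos lay below undivided cells. Dok3, an inhibitory adaptor, was at 7.67 and 6.19 in Div8pos, against 14.6 and 15.9 in Div8neg. Grb2, which links receptors to the Ras exchange factor SOS, was at 29.1 and 25.4 in Div8pos, against 53.5 and 55.4 in Div8neg. These 3 were called lower on both scales, while Dapp1, an adaptor that binds lipids made by PI3 kinase, was lower only relative to all genes, at 5.76 and 4.82 per cell in Div8pos, against 6.07 and 6.4 in Div8neg. With Blnk and Lax1 the most abundant of them there, the 6 adaptors summed to 214 and 189 mRNAs per cell in Div8pos, against 168 and 176 in Div8neg.

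Of the 11 enzymes, exchange factors and effectors, 5 were lower, 2 higher and 4 not called per cell. Plcg2, whose product makes inositol trisphosphate and diacylglycerol, was at 54.0 and 46.1 mRNAs per cell in Div8pos, against 48.4 and 52.9 in Div8neg. It was at 10.4 and 12.9 in Div0, 16.9 and 24.7 in Div1, 19.4 and 23.9 in Div3, and 35.6 and 32.4 in Div5. Div8pos and Div8neg libraries overlapped, with a 95% interval of 0.718 to 1.35 in fold, and both groups lay above the earlier divisions.

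Rasgrp3, a diacylglycerol-binding activator of Ras, was at 45.2 and 37.3 mRNAs per cell in Div8pos, against 23.7 and 25.6 in Div8neg. It was at 6.51 and 7.38 in Div0, 10.9 and 14.0 in Div1, 11.1 and 12.1 in Div3, and 18.5 and 15.3 in Div5. Both Div8pos libraries were the highest of the 12 (1.67-fold over Div8neg by means, adjusted p = 0.0030), but neither call held without every library. Relative to all genes the log2 difference was 0.19 ± 0.07 (SE, adjusted p = 0.018), and adjusted p was 0.153 without Div8pos host 196, 0.055 without Div8neg host 196 and 0.069 without Div8neg host 197. Per cell adjusted p was 0.0731 without Div8pos host 196 and 0.051 without Div8neg host 196.

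The protein kinase C genes parted. Prkcb, which links the receptor to the BCL10 and MALT1 complex, was at 9.60 and 7.64 mRNAs per cell in Div8pos, against 28.3 and 30.4 in Div8neg (log2 difference per cell -1.76). Prkcd, a second protein kinase C with a role in B cell tolerance, was at 22.2 and 17.9 in Div8pos, against 17.2 and 18.4 in Div8neg, and was not called per cell (95% interval 0.822 to 1.53 in fold). Of the complex itself, Malt1 was at 3.93 and 3.52 in Div8pos, against 6.88 and 7.01 in Div8neg, and was lower on both scales. Its partner Bcl10 was at 8.64 and 6.98 in Div8pos, against 5.88 and 6.59 in Div8neg, and was called only relative to all genes, where it was lower (log2 difference -0.23 ± 0.06, adjusted p = 0.0053, and 0.0824 without Div8pos host 197). Nfatc1, a transcription factor activated by calcium through calcineurin, was at 3.84 and 3.25 in Div8pos, against 6.54 and 7.86 in Div8neg, and was lower on both scales.

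The exchange factors of the VAV family also differed among themselves. Vav1 was at 11.9 and 9.47 mRNAs per cell in Div8pos, against 16.5 and 17.4 in Div8neg. Its per-cell call was lost without host 197 of either group (adjusted p = 0.0614 without Div8neg host 197 and 0.112 without Div8pos host 197). Vav2 was at 6.81 and 5.41 in Div8pos, against 12.2 and 12.9 in Div8neg, and was lower on both scales. Vav3 was under 1 mRNA per cell in every group, at 0.301 and 0.301 in Div8pos, against 0.153 and 0.175 in Div8neg, and was higher per cell only (adjusted p = 0.0028), with fold changes of such low genes understated by the 0.1 added before the logarithm. Sos1, a Ras exchange factor, was at 1.60 and 1.53 in Div8pos, against 1.27 and 1.37 in Div8neg, and was not called per cell. Over the 11 effectors the sums were 168 and 139 mRNAs per cell in Div8pos, against 167 and 181 in Div8neg.

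Ratios of 2 members within a library do not depend on either scaling, and the pairs given here were chosen after the values were seen. Cd22 was 0.0376 and 0.0298 of Cd79a in Div8pos, against 0.576 and 0.552 in Div8neg. Blnk was 1.19 and 1.15 times Cd79a in Div8pos, against 0.303 and 0.292 in Div8neg. Over the divisions, Cd22 per Cd79a lay between 0.483 and 0.703, and Blnk per Cd79a between 0.25 and 0.328 in all 10 libraries outside Div8pos. Against Syk, which itself increased along the CD138- groups, ratios were lower in Div8neg than in Div0 for Ptpn6, Lyn, Btk and Blnk. The ratio of Ptpn6 to Syk was 2.42 and 2.21 in Div0, 2.30 and 1.99 in Div1, 1.87 and 1.70 in Div3, and 1.55 and 1.38 in Div5. It was 0.513 and 0.527 in Div8pos, against 1.31 and 1.19 in Div8neg, so in both hosts it was lower at each later division up to Div8neg and lower in Div8pos than in Div8neg. Btk per Syk was 0.744 and 0.816 in Div8pos, against 0.375 and 0.334 in Div8neg. It too was lower at each later division up to Div8neg, from 0.647 and 0.569 in Div0. Lyn per Syk was 0.81 and 0.755 in Div0, 0.602 and 0.582 in Div8neg, and 0.345 and 0.361 in Div8pos. Blnk per Syk was 1.44 and 1.36 in Div0, 0.857 and 0.791 in Div8neg, and 3.45 and 3.58 in Div8pos. Cd79b per Cd79a was 0.828 and 0.733 in Div8pos, against 0.581 and 0.56 in Div8neg, where Div0 had 0.822 and 0.796. An exact test of 2 against 2 libraries cannot go below p = 0.333, so no test is given for these ratios.

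**Figure D3:**
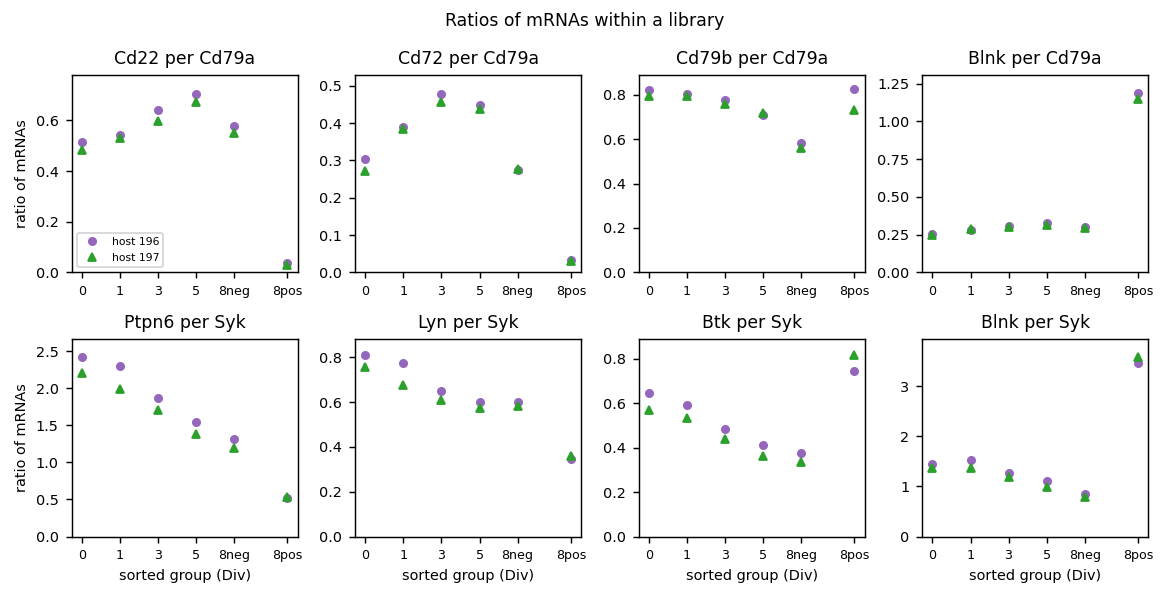
Ratios of mRNAs of 2 genes within each library, by sorted group, with host 196 as circles and host 197 as triangles. Cd22 and Cd72 per Cd79a are near 0 in Div8pos only, and Blnk per Cd79a and per Syk are highest in Div8pos. Ptpn6 and Btk per Syk are lower at each later division up to Div8neg. In Div8pos, Ptpn6 per Syk is lower and Btk per Syk higher than in Div8neg.

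Against undivided cells, the genes kept in CD138+ cells looked different on the 2 scales. In edgeR 29 of 32 members were lower in Div8pos than in Div0 relative to all genes and 2 were higher (Rasgrp3 and Lax1), where 82.4% of all genes were called, 40.2% higher and 42.2% lower. Per cell 15 members were higher, 9 lower and 8 not called, where 89.1% of all genes were called, 82.4% higher and 6.65% lower. The median log2 difference per cell was 0.28 over the members and 1.84 over all genes, so the members as a list lay below the typical gene. The 9 that fell in molecules were Cd22, Cr2, Cd72, Siglecg, Cd37, Bank1, Blk, Ptpn6 and Dok3. By means the largest falls were 14.0-fold for Cd22, 8.91-fold for Cr2 and 8.63-fold for Cd72. The largest rises were 5.94-fold for Rasgrp3, 5.71-fold for Lax1 and 4.86-fold for Blnk. Cd79a and Cd79b were not called per cell, at 1.05-fold (95% interval of the fitted fold 0.758 to 1.47) and 1.02-fold (0.733 to 1.41) over Div0.

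**Figure D4:**
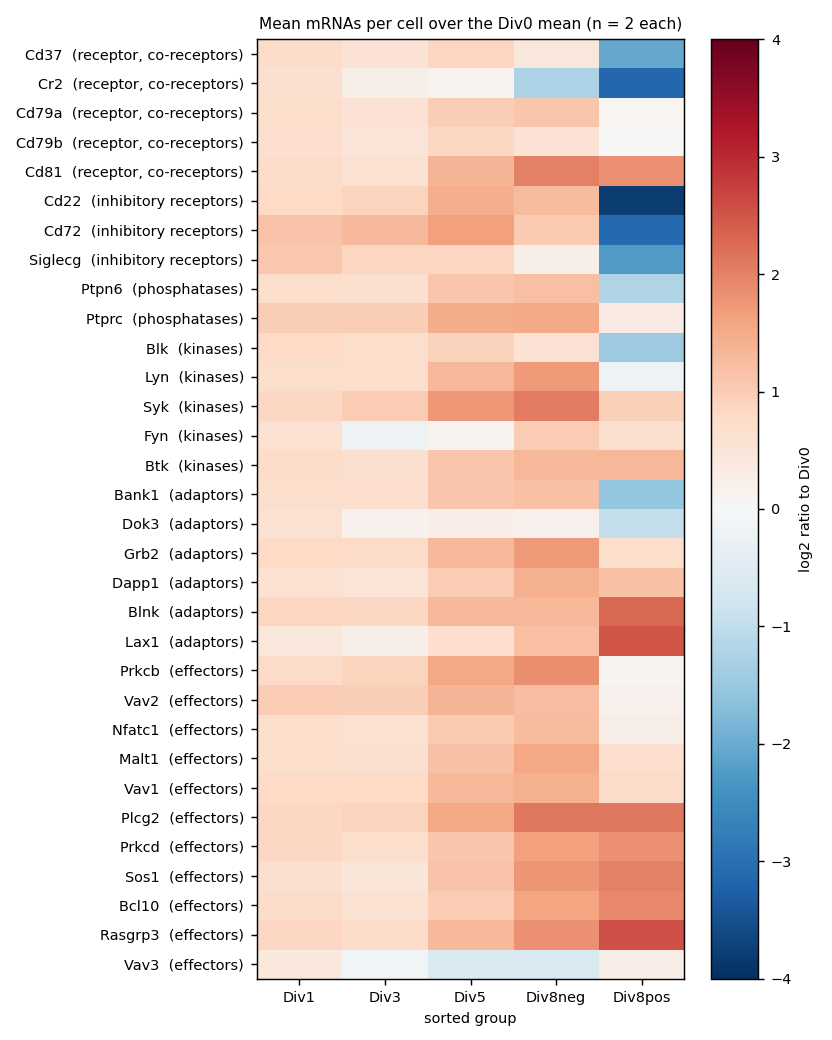
Log2 ratio of each gene's mean mRNAs per cell in a sorted group to its mean in Div0 (n = 2 each), with genes grouped by role and red above and blue below the Div0 level. Most genes are above Div0 from Div1 to Div8neg, and the Div8pos column holds both the deepest blue (Cd22, Cr2, Cd72) and the deepest red (Rasgrp3, Lax1).

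Among CD138- cells after 8 or more divisions most members were higher per cell and lower relative to all genes. Per cell, 27 members were higher in Div8neg than in Div0 and 2 were lower (Cr2 and Vav3), where 90% of all genes were called, 88.3% higher and 1.67% lower. The medians were 1.29 over the members and 1.41 over all genes. In counts relative to all genes 21 members were lower, 4 higher (Plcg2, Syk, Cd81 and Prkcb) and 7 not called, where 71% of all genes were called, 35.3% higher and 35.7% lower. Plcg2 averaged 841 ± 3.86 CPM in Div8neg and 617 ± 18.8 CPM in Div0 (adjusted p = 4.5e-07). Cr2 averaged 206 ± 37.2 CPM in Div8neg and 1590 ± 202 CPM in Div0, a log2 difference of -2.95 ± 0.15 (SE). Vav3 and Dok3 followed among the falls, with log2 differences of -2.28 ± 0.14 and -1.50 ± 0.07 (SE). The comparisons of Div8pos and Div8neg with Div0 share the Div0 libraries.

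By steps, few members were called on counts relative to all genes before Div5, and the share of all genes called also rose at Div5. From Div0 to Div1, 15.6% of the members were called, beside 9.37% of all genes. The next step, to Div3, had 15.6% of the members beside 3.42% of all genes. The step on to Div5 had 31.2% beside 26.5%. Whether these shares differ was not tested. At the first division 4 members were higher in Div1 than in Div0 (Cd72, Siglecg, Vav2 and Ptprc) and Lax1 was lower, where 9.37% of all genes were called, 5.47% higher and 3.9% lower. Cd72 averaged 578 ± 26.6 CPM in Div1 and 439 ± 16.6 CPM in Div0, a log2 difference of 0.39 ± 0.05 (SE, adjusted p = 1.6e-04). Siglecg had a log2 difference of 0.33 ± 0.05 (SE, adjusted p = 3.5e-04), so both inhibitory receptors rose first before their later fall. Lax1, the adaptor that later rose most, began with a log2 difference of -0.30 ± 0.07 (SE, adjusted p = 0.013), which reversed to 0.44 with spike-in scaling (adjusted p = 0.064). Without any 1 of the 4 libraries of Div1 and Div0 the count of members called was 3 in place of 5, and that of all genes 624 to 790 in place of 1129. Among the calls lost, that of Lax1 was lost without Div0 host 196 or Div1 host 197. That of Vav2 was lost without Div1 host 196, Div0 host 197 or Div1 host 197. Of Cd72, Siglecg and Ptprc, not all kept their call without Div1 host 196. Per cell 30 members were higher in Div1 and none lower (Lax1 and Vav3 not called), where 77.1% of all genes were called, 76.9% higher and 0.133% lower. That count was 4 without Div0 host 196 or without Div1 host 197, where 871 and 1201 of all genes were called in place of 9286. It was 1 with the 2 groups fitted alone, where 1059 of all genes were called. The neutrophil genes of the marker list summed to 18.3 mRNAs per cell in Div1 host 197, against 1.25 in Div1 host 196, and their part was not tested.

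Between Div3 and Div1, Syk, Cd72 and Prkcb were higher and Fyn and Dok3 lower in Div3, where 3.42% of all genes were called, 1.91% higher and 1.51% lower. Fyn averaged 38.6 ± 1.03 CPM in Div3 and 62.8 ± 0.15 CPM in Div1, a log2 difference of -0.70 ± 0.08 (SE, adjusted p = 1.8e-04). With host as a block 9 members were called in place of 5, and 755 of all genes in place of 412. The count was 2 without Div1 host 196 or Div3 host 197 (138 and 173 of all genes), 3 without Div3 host 196 or Div1 host 197 (307 and 289), and 0 with spike-in scaling (89). The other 4 calls were of log2 differences between -0.35 and 0.29. Prkcb lost its call without any 1 of the 4 libraries, Syk and Dok3 without Div1 host 196 or Div3 host 197, and Cd72 without Div3 host 196 or Div1 host 197.

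Between Div5 and Div3 several surface genes were lower in Div5 relative to all genes, while their mean levels per cell, set side by side with no test, were higher or close. Cd81 and Syk were higher and 8 members lower in Div5 than in Div3 (Cd79b, Cr2, Cd37, Cd72, Siglecg, Blk, Dok3 and Vav3), where 26.5% of all genes were called, 14.2% higher and 12.4% lower. Siglecg averaged 626 ± 22.9 CPM in Div5 and 913 ± 12 CPM in Div3, a log2 difference of -0.54 ± 0.05 (SE, adjusted p = 5.3e-06). Vav3 had a log2 difference of -0.99 ± 0.14 and Cr2 one of -0.65 ± 0.14 (SE). Per cell, Cd79b averaged 118 mRNAs in Div5 and 94.7 in Div3, Cd37 83.2 in Div5 and 69.1 in Div3, Cd72 73.4 in Div5 and 57.4 in Div3, and Siglecg 46.7 in Div5 and 46.8 in Div3. With spike-in scaling 12 members were called, all 12 higher in Div5, where 5446 of all genes were called higher and 48 lower. Without Div3 host 196 or Div5 host 197 the count relative to all genes was 4 in place of 10, and that of all genes 1522 and 1200 in place of 3199, with the calls of Cr2 and Syk among those lost. Cd81 lost its call without host 196 or 197 of Div5 or host 197 of Div3.

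In the last CD138- step 20 members were lower in Div8neg than in Div5 and 2 higher (Fyn and Cd81), where 53.4% of all genes were called, 26.8% higher and 26.6% lower. Cr2 had the largest fall, with a log2 difference of -1.89 ± 0.15, followed by Siglecg with -1.11 ± 0.05 and Cd72 with -1.08 ± 0.05 (SE). Fyn averaged 44.3 ± 2.46 CPM in Div8neg and 32.7 ± 1.47 CPM in Div5 (adjusted p = 6.1e-04). Cd81 was not called without host 196 or 197 of Div5 or host 196 of Div8neg. With spike-in scaling 8 members were higher and 3 lower, where 5095 of all genes were called higher and 369 lower. By the mean of 2 libraries per cell, with no test, 16 members had their highest mean in Div8neg, 6 in Div5, 6 in Div8pos (Bcl10, Blnk, Lax1, Prkcd, Rasgrp3 and Sos1) and 4 in Div1 (Cr2, Dok3, Siglecg and Vav3). The libraries of Div8pos and Div8neg overlapped for Btk, Plcg2 and Prkcd, and Bcl10 and Sos1 were not called between them per cell.

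A list of other genes of the pathway was set beside the members. Of 91 further genes listed, 89 were found by symbol and 88 tested. In counts relative to all genes 59 (67%) were lower and 14 (15.9%) higher in Div8pos than in Div8neg (median log2 difference -0.90). Over all genes 35.3% were lower and 36.7% higher (median 0.01). Per cell 39 (44.3%) were lower and 24 (27.3%) higher (median -0.30), where 16.3% of all genes were lower and 52% higher (median 0.49). Of 15 further surface genes tested 13 were lower relative to all genes, and of 16 kinases, phosphatases and their regulators 15 were lower and none higher. The Ras and MAP kinase genes had 6 higher and 4 lower of 13 (46.2% and 30.8%), near the shares over all genes. Pirb and Ceacam1, receptors with inhibitory motifs, had log2 differences of -6.30 and -6.15 relative to all genes, and the Src-family kinase gene Fgr one of -4.51. On the other side, Ppp3cc, which encodes a catalytic subunit of calcineurin, was at 41.5 and 40.7 mRNAs per cell in Div8pos, against 10.7 and 11.2 in Div8neg (log2 difference 1.36 ± 0.06 relative to all genes). The tetraspanin gene Cd9, the Ras gene Hras and the MAP kinase kinase gene Map2k2 were also higher, with log2 differences of 0.88, 0.81 and 0.63 relative to all genes.

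Promoter windows from RefSeq (GRCm38.p6, 250 bases before to 50 after a start site) were found for 27 of the 32 members and searched on both strands for 3 motifs. The octamer ATTTGCAT, bound by OCT factors, was in the windows of 2 members, Blnk and Prkcb, or 7.41% of those with a window, against 1.97% of all genes with one. These members went in opposite directions with CD138, Blnk higher and Prkcb lower in Div8pos. GAGGAA, a core of PU.1-type ETS sites, was in windows of 12 members (44.4%), against 31.3% of all genes. Of these, Lax1 and Rasgrp3 were higher with CD138 relative to all genes, the call of Rasgrp3 being lost without some libraries. The others, Cd72 among them, were lower, as were 87.5% of all 32 members. GAAAGTG, the core of the motif of BLIMP1, a repressor made by plasma cells, was in the window of 1 member, Vav2 (3.7%, against 5.52% of all genes), where it overlaps a GAGGAA match. Stretches of 30 bases around the octamer and GAAAGTG matches are shown, with 1 GAGGAA match each of Cd72 and Rasgrp3. Other GAGGAA matches are left out. The stretches shown let members that share a motif be set side by side. Each is on the strand of its gene, 5′ to 3′, with the motif or its reverse complement in capitals.
Blnk octamer, chr19:40994333-40994362, minus strand: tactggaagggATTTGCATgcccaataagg
Prkcb octamer, chr7:122289044-122289073, plus strand: gcctgggtttcATGCAAATgagggaggcgg
Cd72 GAGGAA, chr4:43454656-43454685, minus strand: ccaaagacctacTTCCTCttttatgacttg
Rasgrp3 GAGGAA, chr17:75435843-75435872, plus strand: gggaaagaatagGAGGAAgtgggcctgcca
Vav2 GAAAGTG, chr2:27427695-27427724, minus strand: tggaaactggtCACTTTCctctcttctagc
The Blnk and Prkcb stretches begin their motif 130 and 70 bases before the start site. They lie in annotated GENCODE exons, and the gene and strand of those exons were not checked. The stretches of Cd72, Rasgrp3 and Vav2 lie in no annotated exon. A match is a run of letters, and binding there was not measured.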

How the data were processed

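Counts over the exons of UCSC mm9 KnownGenes and mRNAs per cell were deposited by the authors, per the file headers' readme. Deposited RPM and FPKM were used only to check that the authors' mRNAs per cell, a signal that is never negative, equal FPKM times 1 spike-in factor per library. The submitters' processing notes name Picard, R 3.2.2 and mm9, while the aligner and counter are not given in the sources at hand. Exon counts went into edgeR 4.0.16 under R 4.3.3 (scaled by TMM, filterByExpr, quasi-likelihood test, 6 group means over 12 libraries, 12049 of 21761 genes tested, 90 of the table having no symbol). mRNAs per cell plus 0.1 were tested on the log2 scale with limma 3.58.1 with trend, so folds of low genes are understated. P-values were adjusted by Benjamini-Hochberg over all genes tested within a comparison, with a threshold of 0.05. For tested differences, "higher" and "lower" are used of called genes. Used of markers, ratios and levels set side by side with no test, they only compare values. Levels in CPM use TMM factors. Fold differences "by means" are ratios of mean mRNAs per cell, and intervals are of the limma fold. Scripts were tested on simulated data. Samples of a number share a host and so are paired, with deviations from group means correlated at 0.02 to 0.30 over 15 pairs of groups. Alternatives were spike-in scaling, DESeq2 1.42.0, no filter, other pseudocounts, host as a block, 2 groups alone and leaving out each library. The members and lists were chosen with earlier results of these data known. Genes given values in every library came from a rule: members with the largest changes in each comparison or the smallest per-cell change with CD138. Others named by that rule, such as Bank1, Blk, Cd37 and Prkcd, are given in fewer groups. A further search for motifs in proteins was not run.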

Additional observations from a re-analysis of the deposited data

How the results depend on the processing

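Members called lower or higher with CD138 numbered 30 to 31 relative to all genes (31 with all libraries) and 22 to 24 per cell (24) when each library was left out. Div8pos against Div0 gave 30 to 31 and 21 to 24 per cell, and Div8neg against Div0 gave 24 to 26 and 26 to 30 per cell. The early steps were less stable. Left-out libraries gave 3 to 5 members for Div1 against Div0 relative to all genes (5) and 4 to 32 per cell (30), 2 to 5 for Div3 against Div1 (5), 4 to 11 for Div5 against Div3 (10) and 18 to 23 for Div8neg against Div5 (22). The counts of all genes moved too, to 624 to 1213 (1129), 871 to 10313 (9286), 138 to 405 (412), 1200 to 3248 (3199) and 4782 to 6489 (6433) in the same order. With spike-in scaling in edgeR, 30 members were called for Div1 against Div0, 0 for Div3 against Div1 and 11 for Div8neg against Div5. Of all genes 9838, 89 and 5464 were called in the same order. That scaling gave 28 members higher and 2 lower in Div8neg than in Div0 (10742 and 191 of all genes). In Div8pos against Div0 it gave 15 higher and 9 lower (9968 and 739 of all genes). With host as a replicate block, 9 members (755 of all genes) were called for Div3 against Div1. No other count of members moved by over 1.5 times (31 with CD138 relative to all genes, 24 per cell). With the 2 groups alone, 2 (178 of all genes) were called for Div3 against Div1 and 1 (1059) per cell for Div1 against Div0. These are fits with fewer samples. For the other moves the cause was not tested. Spike-in scaling turned the log2 difference with CD138 to 0.0317 for Btk, 0.017 for Plcg2, 0.28 for Sos1, 0.21 for Prkcd and 0.36 for Bcl10, none of them called. It also turned Dok3 to 0.19 for Div8neg against Div0 and Lax1 to 0.44 for Div1 against Div0. The per-cell difference with CD138 ran from -0.0641 to 0.0559 for Btk and from -0.134 to 0.0927 for Plcg2 over the left-out libraries, above 0 without host 197 of Div8pos or of Div8neg. With 2 libraries a group and 113723 spike-in counts in the least covered library, genes not called per cell may still differ by folds within the intervals given.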
